A study of Homo sapiens with 8 samples.

Results

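The comparison set HEK293T cells carrying the catalytic domain of TET1 fused to a methyl-CpG-binding domain (MBD-TET1-CDwt, clones #3 and #10) against cells carrying the same catalytic domain without it (TET1-CDwt, clones #2 and #5). These were 4 of the 8 expression arrays of the series, chosen by their titles alone. Both groups shared the active domain, so the fusion partner was the difference built into the design.

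TET enzymes oxidise 5-methylcytosine, and replication or base excision repair then leaves unmethylated cytosine at that site. Methyl-CpG-binding domains recognise symmetrically methylated CpG pairs, the form in which silenced CpG-dense promoters are kept in somatic cells. Promoters of many germline genes, cancer-testis antigens among them, are held silent in this way in somatic and cancer cells.

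HEK293T is a transformed human embryonic kidney cell line, and every array held RNA of 1 clonal line grown under blasticidin after transfection with a pcDNA6 construct. The MBD came from MBD2 and the catalytic domain from human TET1. The other 4 arrays held 2 clones with empty vector and 2 with MBD-TET1-CDmut, the fusion with an inactive catalytic domain. Each construct was thus represented by 2 clones, and p-values rest on the spread between clonal lines, pooled over the 4 groups. For a probe below background in some groups, that pool takes in the spread of background signals. The TET1-CDwt and empty vector arrays lay on 1 slide and both MBD fusions on the other, so for MBD-TET1-CDwt against TET1-CDwt the slide and the MBD cannot be told apart. Values within a slide are therefore given beside the main ones.

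Levels are log2 processed signals relative to the 75th percentile of each array, so 0 marks a fairly bright probe and background lies near -6.01 to -5.51. That percentile lay between 328 and 527 intensity units, 63.2% to 68.2% of probes were well above background, and no spot was saturated. The SD of 1 clone around its group was 0.38 in TET1-CDwt and 0.50 in MBD-TET1-CDwt (log2, 22530 probes). Among probes dim on all 8 arrays, the median difference between MBD-TET1-CDwt and TET1-CDwt was 0.43, against 0.03 between both fusions on the same slide. Fold changes against a group with no array above background are therefore bounds against the lowest signal well above background, and are written as at least N-fold. B2M (log2 level 3.11 and 3.13 in TET1-CDwt, 2.99 and 2.95 in MBD-TET1-CDwt) served as a level reference. Of 7 kidney lineage markers, 6 were above background on both arrays of each of these groups, SIX2 among them (-1.61 and -2.07 against -1.27 and -1.25).

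Endogenous TET1 did not mark the constructs. The brighter TET1 probe stood at 2.74 and 2.71 in TET1-CDwt, at 2.78 and 2.81 in MBD-TET1-CDwt, and at 2.62 and 2.94 with empty vector. The brighter MBD2 probe gave 1.56 and 1.32 against 1.65 and 1.25. Where these probes lie relative to the cloned parts was not determined, so they check neither construct.

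With all 4 clones, more genes passed either rule as higher than as lower in MBD-TET1-CDwt, an imbalance that was absent without clone #10. In limma over all 8 arrays, 24 of 22530 probes were higher in MBD-TET1-CDwt (0.107%) and 2 were lower (0.00888%) at an adjusted p under 0.05. At 2-fold by size, 232 genes were higher (1.37%) and 165 lower (0.934%). By size alone, 54 of 16990 genes that could pass were at least 5-fold higher (0.318%), and 12 of 17671 were at least 5-fold lower (0.0679%). Without MBD-TET1-CDwt clone #10, 45 genes were higher and 44 lower by size, and 27 and 31 probes by limma. Without clone #3, 145 and 12 genes and 70 and 6 probes were. In 22 genes each MBD-TET1-CDwt clone was at least 5-fold above each TET1-CDwt clone (0.129%), and in 2 genes at least 5-fold below (0.0113%). The catalytic domain alone, set against empty vector on its own slide, gave 3 genes at least 5-fold higher (0.017%) and 1 lower (0.00561%), and no probe was called by limma, and before adjustment 147 and 417 probes lay under 0.05 in the respective directions. MBD-TET1-CDmut gave 8 genes at least 5-fold above (0.0467%) and 2 below (0.0112%) empty vector, and MBD-TET1-CDwt gave 65 above (0.383%) and 6 below (0.0337%). Of all 34071 probes, the clones did not overlap in 30.1% with MBD-TET1-CDwt higher and in 9.8% with it lower, shares that include dim probes, and in 15.4% and 12.3% of the tested ones. Detection on both MBD-TET1-CDwt arrays and on neither TET1-CDwt array was found for 73 probes (0.214%), and the reverse for 340 (0.998%). A fit of the 4 arrays alone, with 2 residual degrees of freedom, called no probe in either direction.

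**Figure D1:**
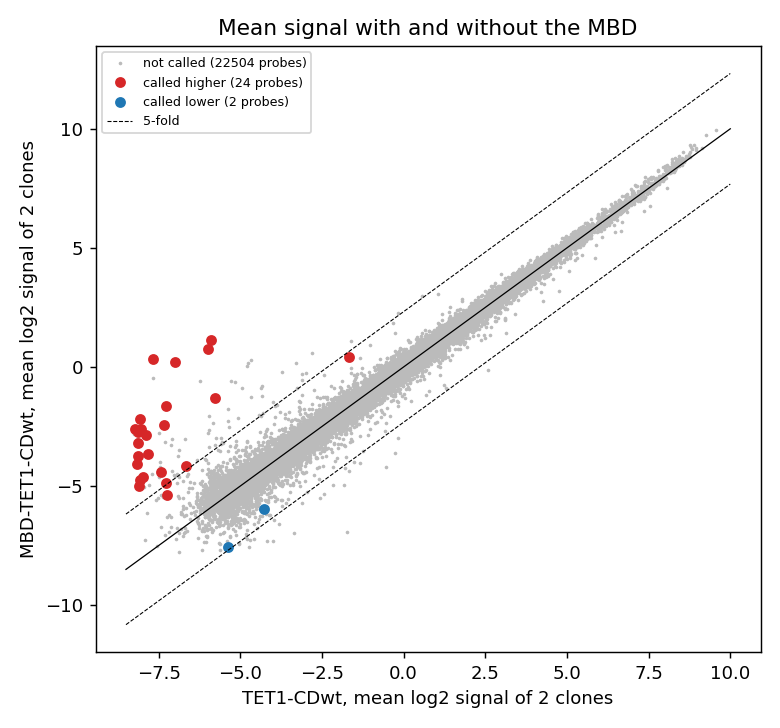
Mean log2 signal of the 2 TET1-CDwt clones (x axis) against that of the 2 MBD-TET1-CDwt clones (y axis) for 22530 probes, with probes called by limma in colour and dashed lines at 5-fold. The 24 probes called higher lie at the left edge, where TET1-CDwt was near or below background, apart from 1 probe of CYP1B1.

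The leading genes went from background to well measured levels. KRT19, a keratin of simple epithelia, stood at -5.78 and -6.01 in TET1-CDwt, where neither array was above background, and at -0.27 and 2.53 in MBD-TET1-CDwt. It was at least 124-fold higher by the mean (limma log2 difference 7.02 ± 0.80 SE, adjusted p = 0.0482), and clone #10 was the higher of the pair. Its limma call was lost with quantile normalization, a robust prior, an intensity trend or no filter on dim probes. HPDL, which encodes a mitochondrial dioxygenase-like enzyme, rose from -5.91 and -6.06 to -0.22 and 1.72, at least 100.2-fold (limma adjusted p = 0.0133). SOX17, an endoderm transcription factor that also restrains Wnt signalling, rose from -8.15 and -7.17 to -0.47 and 1.13, at least 75.7-fold (limma adjusted p = 0.00494). In all 3 genes the clones of the groups were far apart, and no MBD-TET1-CDmut array of these genes exceeded the -4.65 of KRT19 in clone #10.

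GAGE7, a cancer-testis antigen whose probe name follows the published gene list and whose family members are near identical, is called by that name here. It stood at -7.30 and -6.68 against 0.87 and -0.43, at least 70.2-fold. The brighter probe of NEFH, the heavy neurofilament chain, stood at -8.15 and -7.20 against -0.35 and -0.55, at least 44.1-fold, with a limma adjusted p of 0.0963. A second, dimmer NEFH probe passed the test (log2 difference 3.35 ± 0.18 SE, limma adjusted p = 0.00199). The 2 MBD-TET1-CDwt clones differed little for both NEFH probes, and one MBD-TET1-CDmut array, clone #10, read -4.40 on the brighter probe.

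Some genes already measurable without the MBD were higher by size. TCF15, a basic helix-loop-helix factor of the somites, went from -4.52 and -4.83 to -0.76 and 1.35, a 31.3-fold difference with a limma adjusted p of 0.0778. DUSP23, a small phosphatase, was 30.7-fold higher, RIOX1, a chromatin-associated oxygenase, 16.8-fold, and VCX2 of the testis-expressed VCX family 11.1-fold. None of these 4 passed limma, although no clone of either group overlapped the other. OPLAH (at least 40.4-fold), MAGEA2B (26.0-fold), PRSS21 (22.1-fold), EFS (at least 19.1-fold), DMRTB1 (at least 13.2-fold) and H1-1 (at least 11.2-fold) completed the 15 largest among genes with every clone past 5-fold. CYP1B1, a cytochrome P450 that oxidises xenobiotics and steroids, was the one gene for which the called probe itself was above background in every sample: -1.37 and -1.97 against 0.30 and 0.53, a 4.24-fold difference (limma adjusted p = 0.0477). Its call was kept in 0 of 8 fits with 1 array left out, and a second CYP1B1 probe, also above background on all 8 arrays, did not pass (limma adjusted p = 0.257).

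**Figure D2:**
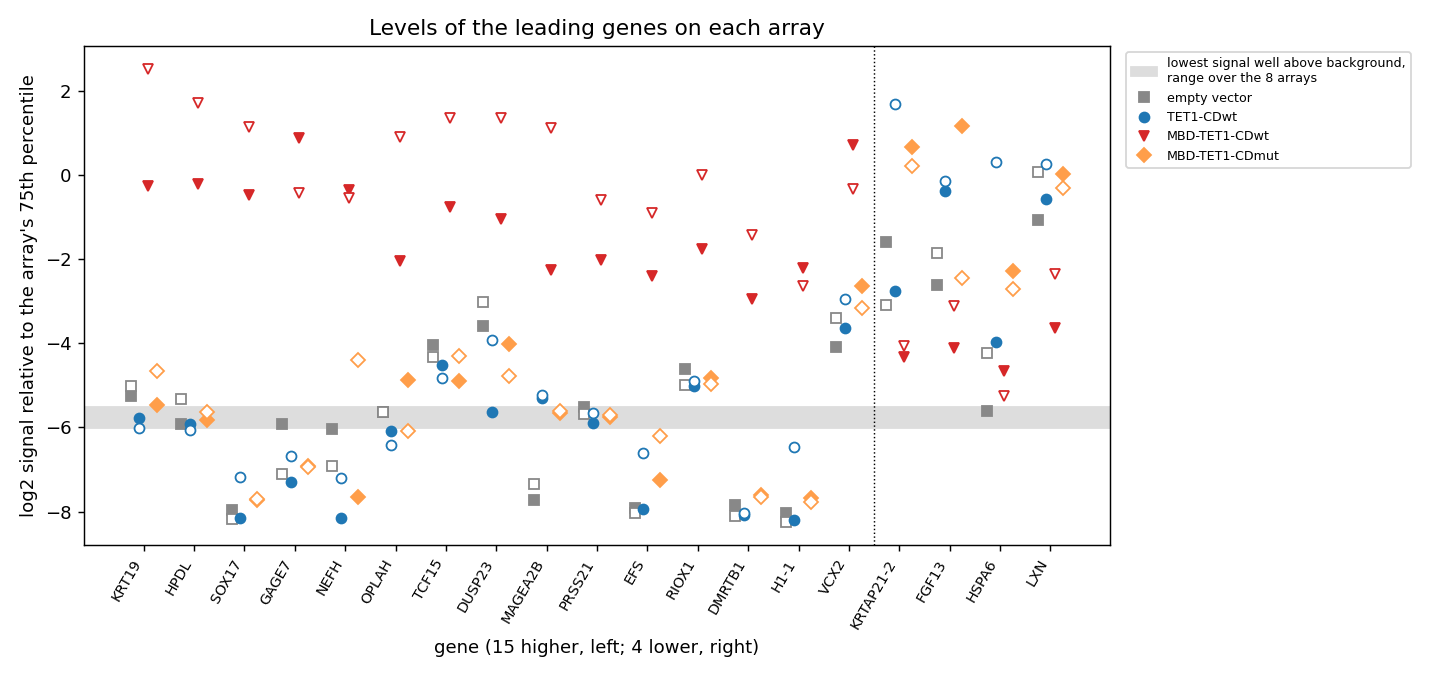
Log2 level on each of the 8 arrays for the 15 genes with the largest fold among those at least 5-fold higher in every clone, and for 4 genes lower than in TET1-CDwt, the largest differences among those with at least 1 MBD-TET1-CDwt array above background. Filled and open symbols are the 2 clones of a group, and the grey band is the range of the lowest signal well above background (-6.01 to -5.51). Both MBD-TET1-CDwt clones lie apart from all other arrays for the 15 genes on the left.

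Germline genes led the calls. GTSF1, GPAT2 and SOHLH2 had the 3 smallest adjusted p and kept their call with any 1 of the 8 arrays left out. Their called probes were below background in all groups but MBD-TET1-CDwt, so these p rest partly on the spread of background signals. Restricted to probes above background on all 8 arrays, limma called none. Their promoters, the 250 bases before the RefSeq start site in GRCh38.p14, are shown with every CG pair in capitals because CpG is what the MBD and TET1 act on. GTSF1 lies at chr12:54473603-54473852, GPAT2 at chr2:96036266-96036515 and SOHLH2 at chr13:36214557-36214806, all on the minus strand and printed 5′ to 3′ along the gene.
GTSF1: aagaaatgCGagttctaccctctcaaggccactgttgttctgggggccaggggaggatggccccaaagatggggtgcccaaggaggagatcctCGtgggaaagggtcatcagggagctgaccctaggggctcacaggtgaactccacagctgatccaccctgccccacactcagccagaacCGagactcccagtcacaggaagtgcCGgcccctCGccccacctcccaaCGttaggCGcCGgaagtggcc
GPAT2: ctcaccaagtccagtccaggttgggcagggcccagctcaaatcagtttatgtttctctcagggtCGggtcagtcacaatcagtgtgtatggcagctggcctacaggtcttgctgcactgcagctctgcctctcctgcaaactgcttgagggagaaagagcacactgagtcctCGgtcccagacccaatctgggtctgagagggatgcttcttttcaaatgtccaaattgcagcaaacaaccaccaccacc
SOHLH2: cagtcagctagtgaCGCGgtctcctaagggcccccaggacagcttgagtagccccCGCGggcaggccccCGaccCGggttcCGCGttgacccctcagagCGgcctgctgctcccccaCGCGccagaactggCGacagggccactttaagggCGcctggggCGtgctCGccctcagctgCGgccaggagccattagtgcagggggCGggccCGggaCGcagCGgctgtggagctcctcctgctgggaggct
These windows held 8, 2 and 20 CG pairs, so the genes with the smallest adjusted p differed in CpG density around the start. The arrays measured RNA and carried no methylation reading of these sites.

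GTSF1, a gametocyte zinc-finger protein needed for piRNA-guided silencing of transposons, stood at -8.07 and -8.01 in TET1-CDwt and at -2.52 and -2.69 in MBD-TET1-CDwt. GPAT2, an acyltransferase-like protein of germ cell mitochondria with a part in piRNA production, stood at -7.91 and -7.84 against -3.11 and -2.58. Their bounds were at least 9.89-fold and at least 8.39-fold, and the limma adjusted p were 0.00051 and 0.000628. These probes were above background on no array of the other 3 groups. The probes of GPAT2 disagreed, however. A second GPAT2 probe was above background on all 8 arrays and read -1.90 and -2.07 against -1.26 and -0.92, without passing limma (adjusted p = 0.559), and a further probe was above background on none.

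TDRD9, a Tudor-domain helicase of the piRNA pathway, was the other called gene of that list (-8.20 and -8.15 against -4.84 and -3.28, at least 3.62-fold, limma adjusted p = 0.0457). HENMT1, which methylates the end of piRNAs, was at least 5.41-fold higher without passing limma (adjusted p = 0.284). PIWIL4, a PIWI protein, read -4.95 and -6.09 against -3.76 and -2.65 and did not pass (limma adjusted p = 0.808). Of 26 piRNA pathway genes on the array, 12 passed the filter on dim probes, 3 were called higher, 3 were at least 5-fold higher and none was called lower or at least 5-fold lower. Over all genes, 24 of 18259 tested were called higher and 54 of 16990 that could pass were at least 5-fold higher. The called probes of GTSF1, GPAT2 and TDRD9 passed the filter through MBD-TET1-CDwt alone, so a lower call was not open to them. The median difference over all 38 probes of the list was 0.48, beside 0.11 over all probes and 0.43 over probes dim everywhere, so the list as a whole lay close to the shift of dim probes. Set against the inactive fusion, which shared its slide, the list median was 0.29, beside 0.02 over all probes and 0.03 for dim probes. Probes dim everywhere leave out by definition any that rose above background, so they cannot decide whether the list as a whole rose.

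Regulators of meiosis and germ cells gave 4 calls among 60 genes on the array, of which 27 passed the filter. Over all genes, 24 of 18259 tested were called higher. The probes called in this list passed the filter through MBD-TET1-CDwt alone. SOHLH2, a helix-loop-helix factor of early spermatogonia and oocytes, stood at -8.25 and -8.20 against -2.95 and -2.29, at least 9.81-fold (limma adjusted p = 0.000628), while a second SOHLH2 probe was above background on no array. DMRTB1, which times the change from mitosis to meiosis in spermatogonia, stood at -8.09 and -8.03 against -2.96 and -1.43, at least 13.2-fold (limma adjusted p = 0.00935). MEIOC, needed to hold germ cells in meiotic prophase, and H1-1, a linker histone variant, were called as well, at least 4.55-fold and at least 11.2-fold. A second MEIOC probe was above background only in clone #10 of MBD-TET1-CDwt.

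MEIOB, a single-strand DNA-binding protein of meiotic recombination, was 13.1-fold higher by the mean but carried that mainly in clone #10, at -0.42, against -3.71 in clone #3, and it did not pass limma (adjusted p = 0.663). TEX19 went the other way, from -0.73 and -0.42 to -3.43 and -1.92, and did not pass (limma adjusted p = 0.836). Both groups of clones stood apart for TEX19, a germ cell gene that HEK293T cells of all other groups also expressed. Over all 71 probes of the list the median difference was 0.44, beside 0.11 over all probes and 0.43 over probes dim on all 8 arrays. The list as a whole thus lay close to the shift of dim probes. Against MBD-TET1-CDmut its median was 0.20, beside 0.02 over all probes and 0.03 for dim probes. Called genes with germ cell roles outside these lists were OOEP, a maternal-effect protein of oocytes (at least 1.43-fold), and PRSS21, the testis serine protease testisin. DDX43, a helicase counted among cancer-testis antigens, was at least 6.67-fold higher without passing limma (adjusted p = 0.366).

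Cancer-testis antigens, genes with protein normally confined to testis and re-expressed in tumours, held 9 of the 54 genes at least 5-fold higher. Of 44 such genes on the array 20 passed the filter, 3 were called higher and none was lower by either rule. Over all genes, 24 of 18259 tested were called higher and 54 of 16990 that could pass were at least 5-fold higher. The called probes of this list passed the filter through MBD-TET1-CDwt alone, so a lower call was not open to them. MAGEA8 stood at -8.15 and -8.08 against -3.59 and -2.83, at least 6.50-fold (limma adjusted p = 0.0212). MAGEA9 stood at -6.68 and -6.62 against -4.42 and -3.88, at least 3.39-fold (limma adjusted p = 0.0173). GAGE7, given above, was the third call, and a transcript listed only as NM_001097592 rose with them (at least 9.09-fold, limma adjusted p = 0.0121).

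The clones differed in size within this family. CT45A5 read -4.32 in clone #3 and 0.81 in clone #10, and MAGEA6 read -3.00 and 1.75, while CTAG1A was the reverse at 0.54 and -0.94. None of the 3 passed limma, and TET1-CDwt stood at -4.85 and -5.91, at -5.76 and -4.59, and at -4.22 and -3.25. A second MAGEA6 probe read -2.69 and -2.94 against -2.58 and -0.94, so its 2 probes disagreed in size. Copies in these families are near identical, so which copy a probe read is uncertain. The median over the list's 54 probes was 0.66, beside 0.11 over all probes and 0.43 over probes dim on all 8 arrays. Against MBD-TET1-CDmut it was 0.32, beside 0.02 over all probes and 0.03 for dim probes. For TET1-CDwt against empty vector it was -0.07.

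**Figure D3:**
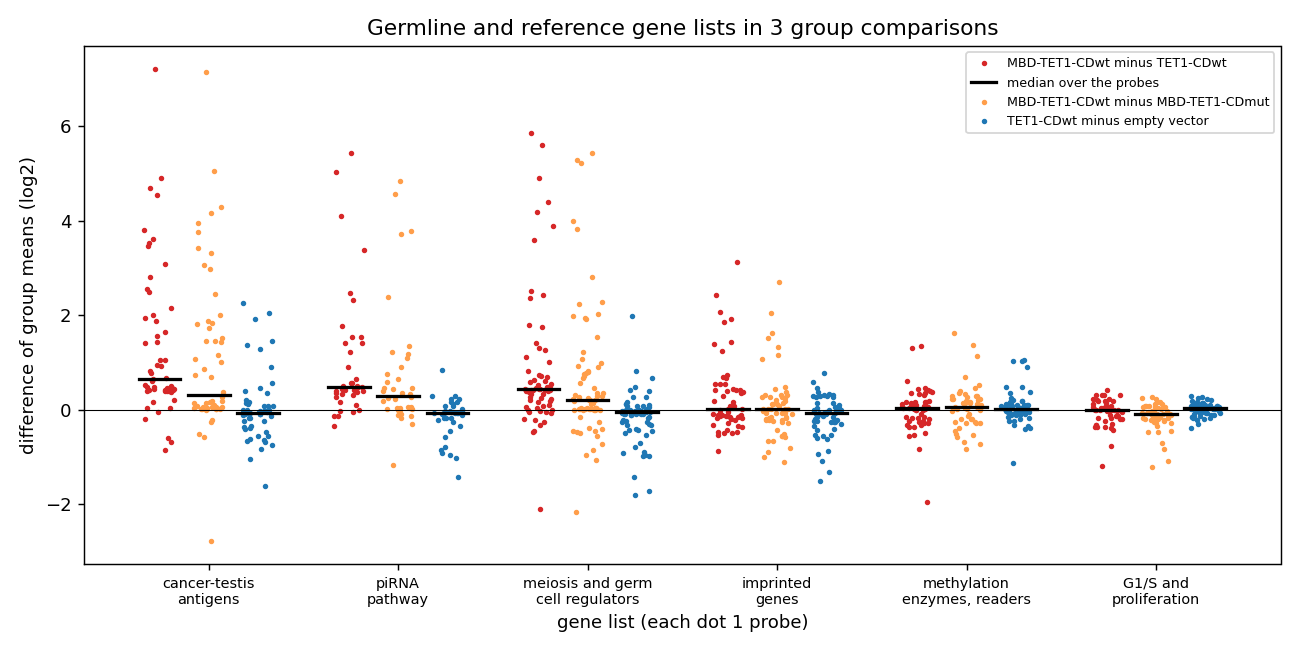
Difference of group means (log2, y axis) for each probe of 6 gene lists in 3 comparisons, with black bars at the median over all probes of the list. The 3 germline lists reach 7.21, 5.44 and 5.86 in MBD-TET1-CDwt minus TET1-CDwt, while TET1-CDwt minus empty vector reaches 2.26, 0.85 and 1.99, and the lists for methylation enzymes and for G1/S genes centre near 0.

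Outside the germline lists, few members of each list passed either rule. Among all genes, 24 of 18259 tested were called higher and 54 of 16990 that could pass were at least 5-fold higher. A list of this size without a call is therefore near the share over all genes. Of 28 intermediate filament genes, KRT19 and NEFH were called and were at least 5-fold higher, while NEFM, the medium neurofilament chain, read 3.23 and 3.04 against 0.32 and 2.51 and did not pass (limma adjusted p = 0.985). Among 33 SOX and endoderm regulators only SOX17 passed either rule. Of 83 homeobox and patterning genes, 64 passed the filter on dim probes, 5 were at least 5-fold higher by size and none was called. TCF15, PRRX2, BARX1, NKX6-2 and TLX3 made up these 5, and NKX6-2, at -1.76 and -4.22 against -2.78 and 2.27, owed its 6.64-fold to clone #10 and was at 0.28 and -0.03 with MBD-TET1-CDmut.

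Of 43 imprinted genes on the array, 33 passed the filter, beside 18259 genes tested in all with 24 called higher. MEST was the one called, from -8.14 and -8.09 to -4.85 and -5.13, at least 1.90-fold (limma adjusted p = 0.0025). H19, a maternally expressed imprinted RNA, stood at -3.26 and -5.21 against -4.61 and -1.01 and the clones overlapped. Of 49 genes known for promoter methylation in cancer, 36 passed the filter, and CRABP1, a retinoic acid carrier, and CYP1B1 were called. APC2 and RBP7 were the members at least 5-fold higher. The CRABP1 call rested on 1 probe (at least 4.81-fold), and a second one, above background on every array, read -3.47 and -3.54 against -3.19 and -2.90. MAL, MT1M and TRH, which the study followed by other assays, were above background on 1, no and 1 of the 2 MBD-TET1-CDwt arrays and on neither TET1-CDwt array.

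Of 35 genes that write, read or erase methylation, none was called or 5-fold apart, 1 was at least 2-fold higher (MBD5, a methyl-CpG-binding family member) and 1 at least 2-fold lower (TET2), and DNMT1 (1.93 and 2.20 against 2.45 and 2.01) and UHRF1 (2.24 and 2.24 against 2.47 and 2.33 on the brighter probe) showed limma differences of 0.16 ± 0.24 SE and 0.16 ± 0.17 SE. Neither passed limma, with adjusted p of 0.992 and 0.985. Of 34 heat shock genes none was called. HSPA1A, an inducible HSP70 chaperone, was 21.1-fold higher by the mean, at -6.78 and -2.78 against 1.03 and -0.95 (limma adjusted p = 0.67). No call and no 5-fold gene appeared among 11 metallothioneins or 43 G1/S genes, of which 9 and 42 passed the filter. With 24 of 18259 tested genes called higher in all, no call in any of these lists is near the share over all genes. Interferon and antigen presentation genes gave none of 57 called and IRF7 alone past 5-fold, at -0.90 and -4.72 against -0.75 and 1.89, so one TET1-CDwt clone matched clone #3.

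The study's own list of upregulated genes was chosen on these MBD-TET1-CDwt arrays against empty vector, so its direction is not independent evidence. Of its 57 genes on the array, 32 were at least 5-fold higher and 21 were called against TET1-CDwt, none was lower, and its median was 3.48. Its median for TET1-CDwt against empty vector was 0.00.

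Fewer genes were lower, and 2 passed limma. FBP1, the gluconeogenic fructose-bisphosphatase, read -5.51 and -5.25 in TET1-CDwt and -7.48 and -7.63 in MBD-TET1-CDwt, where neither array was above background, a limma log2 difference of -2.18 ± 0.18 SE (adjusted p = 0.0121). GPR50, a melatonin-related orphan receptor, read -4.36 and -4.19 against -6.08 and -5.86, a difference of -1.69 ± 0.19 SE (limma adjusted p = 0.0469). Both started close to the floor, so their bounds were at least 1.12-fold and at least 2.40-fold lower. With 1 array left out, FBP1 kept its call in 4 of 8 fits and GPR50 in 0 of 8, and both differences turned positive with normexp background correction (0.22 and 0.0443). The FBP1 promoter window at chr9:94639519-94639768 (minus strand) is shown beside that of HPDL at chr1:45326645-45326894 (plus strand), a gene called higher, again with CG pairs in capitals.
HPDL: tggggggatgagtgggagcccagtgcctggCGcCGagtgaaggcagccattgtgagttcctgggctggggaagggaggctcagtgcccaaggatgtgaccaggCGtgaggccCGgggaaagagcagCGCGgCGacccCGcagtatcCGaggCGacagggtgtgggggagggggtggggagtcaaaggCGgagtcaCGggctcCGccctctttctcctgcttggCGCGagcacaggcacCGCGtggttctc
FBP1: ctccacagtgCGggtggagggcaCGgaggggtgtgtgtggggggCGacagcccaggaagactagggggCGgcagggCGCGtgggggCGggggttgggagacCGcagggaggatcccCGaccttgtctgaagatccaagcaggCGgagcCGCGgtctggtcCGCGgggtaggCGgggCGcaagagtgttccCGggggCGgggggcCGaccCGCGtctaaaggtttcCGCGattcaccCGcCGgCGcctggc
The gene that fell held 26 CG pairs in this window and the gene that rose held 17.

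By size, FGF13, an intracellular member of the fibroblast growth factor family, read -0.38 and -0.14 against -4.12 and -3.11, 10.2-fold lower. Each MBD-TET1-CDwt clone lay at least 5-fold under each TET1-CDwt clone, yet the gene did not pass limma (adjusted p = 0.884). The other groups varied widely too, with FGF13 at -2.63 and -1.86 with empty vector and at 1.17 and -2.45 with MBD-TET1-CDmut.

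Several other lower values rested on 1 bright TET1-CDwt array. HSPA6, a stress-induced chaperone, read -3.96 in TET1-CDwt clone #2 and 0.31 in clone #5, against -4.66 and -5.26, and its second probe, at -5.29 and -2.71 against -4.86 and -4.98, was not 5-fold apart. The keratin-associated genes KRTAP21-2, KRTAP19-1 and KRTAP21-1 and the muscle stress gene ANKRD1 were likewise high in clone #5. KRTAP21-2 read -2.75 and 1.68 there against -4.32 and -4.06, 12.6-fold lower by the mean. Without that clone 27 genes were at least 5-fold lower, 4 of them among the 12. For HSPA6, ANKRD1 and the keratin-associated genes, both MBD-TET1-CDmut clones also lay above both MBD-TET1-CDwt clones. With MBD-TET1-CDmut, KRTAP21-2 read 0.66 and 0.20. LXN, latexin, was 7.18-fold lower with both groups apart (-0.56 and 0.25 against -3.64 and -2.36, limma adjusted p = 0.374).

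The 3 genes at least 5-fold higher in TET1-CDwt than with empty vector also varied by clone. ICAM2, an adhesion molecule, read 0.40 in TET1-CDwt clone #2 and -5.59 in clone #5, against -1.94 and -1.27 in MBD-TET1-CDwt. ITM2A read -0.88 and -5.03 against 0.68 and -6.92. HSPA6 is given above. In all 3 genes the TET1-CDwt clones differed widely, and for ITM2A the MBD-TET1-CDwt clones did as well.

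Within the second slide, where slide cannot enter, MBD-TET1-CDwt exceeded MBD-TET1-CDmut by at least 5-fold in 49 of 16983 genes (0.289%) and was lower in 14 (0.0817%). By limma 20 probes were higher (0.0888%) and 3 lower (0.0133%). The inactive fusion was above background on no array for the called probes of SOX17, GTSF1, GPAT2 and SOHLH2, so their folds are bounds: at least 58.0-fold, at least 7.58-fold, at least 6.43-fold and at least 7.52-fold, with limma adjusted p of 0.00473, 0.00112, 0.0012 and 0.0012. These values share the MBD-TET1-CDwt arrays with the main comparison. FBP1 and GPR50 were above background on no array of either fusion, so their within-slide differences compare dim signals. FBP1, one of the 3 lower calls, read -5.36 and -5.39 with MBD-TET1-CDmut against -7.48 and -7.63 with MBD-TET1-CDwt (limma adjusted p = 0.013). GPR50 read -5.02 and -5.21 against -6.08 and -5.86 and did not pass (limma adjusted p = 0.426).

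A contrast in which a shift common to a slide cancels, MBD-TET1-CDwt minus TET1-CDwt less MBD-TET1-CDmut minus empty vector, called 10 probes positive (0.0444%) and none negative, with 494 and 347 at an unadjusted p under 0.05 in limma. GPAT2, GTSF1, SOHLH2, SLC22A24, NEFH, OOEP, SOX17, GAGE7 and MEST were positive with MBD-TET1-CDwt alone above background. Their probes passed the filter through that group only, which set their direction in advance. The count of positive against negative calls is therefore no evidence of a direction free of the slide. SLC22A24 encodes an organic anion transporter, and its second probe was above background nowhere. The tenth, a probe of the ganglioside synthase ST8SIA1, was above background with empty vector alone (-3.90 and -4.64, against -7.94 to -7.08 elsewhere), so its value came from that group. Without MBD-TET1-CDwt clone #10 this contrast called 4 probes negative.

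The MBD-TET1-CDwt clones were less alike than those of any other group. Against the TET1-CDwt mean, 45 genes were at least 5-fold higher in clone #3, 145 in clone #10 and 26 in both, while 44, 12 and 8 were at least 5-fold lower. Without clone #3 the size rule gave 145 genes higher, and without clone #10 it gave 44 lower in place of 12. TMEM88, a Wnt signalling inhibitor at the membrane, read 2.14 in clone #10 and -3.25 in clone #3, within the -3.36 and -2.85 of TET1-CDwt, and its 5.84-fold reversed without clone #10. CXCL12, a chemokine, read 0.08 in clone #10 and -5.68 in clone #3, and RAD21L1, a meiotic cohesin subunit, read -2.99 in clone #3 and -7.54 in clone #10.

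**Figure D4:**
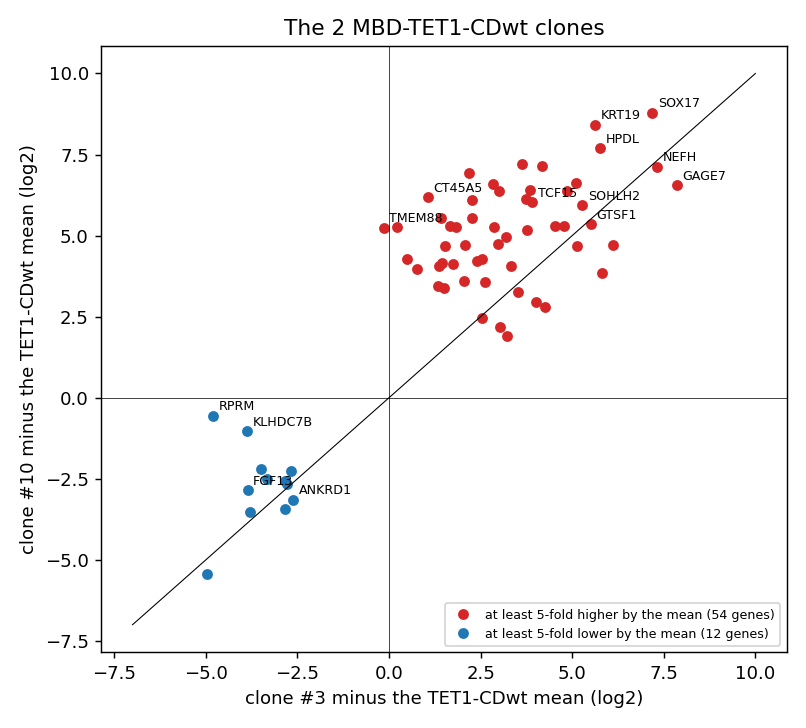
Log2 difference from the TET1-CDwt mean in MBD-TET1-CDwt clone #3 (x axis) and clone #10 (y axis), with signals as measured, for the 54 genes at least 5-fold higher and the 12 at least 5-fold lower by the mean. Most of the higher genes lie above the diagonal, where clone #10 is the higher, while GTSF1, NEFH and SOHLH2 lie near it.

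A gene group that separated the clones was the unfolded protein response, the set of chaperones and stress factors induced when proteins misfold in the endoplasmic reticulum, a list drawn up after its values had been seen. Of 34 such genes on the array, 24 were at least 2-fold below the TET1-CDwt mean in clone #3 and none in clone #10. Among all tested probes, 4.42% were that low in clone #3 and 1.23% in clone #10. The median over the list was -1.24 in clone #3 and 0.02 in clone #10. HSPA5, the chaperone BiP, read 2.57 and 2.74 in TET1-CDwt, -0.34 in clone #3 and 3.01 in clone #10. DDIT3, the stress factor CHOP, read 1.19 and 1.30, then -2.18 and 0.64, which put clone #3 at -3.42 on the log2 scale from the TET1-CDwt mean.

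PDIA4, a disulfide isomerase, was 6.61-fold lower in clone #3, HERPUD1, which serves degradation of misfolded proteins, 5.58-fold, and HYOU1, a chaperone of the same compartment, 4.61-fold. Clone #3 was the lowest of all 8 arrays for 28 of the 34 genes, a count that the choice of the list after its values were seen partly fixes. Among the 22530 tested probes, clone #3 was the lowest for 4950. Among transducers of the response, ATF4 and ATF6 were within 0.32 of the TET1-CDwt mean. In clone #3, XBP1 and EIF2AK3 lay at -0.98 and -0.81 from that mean, and ERN1, which did not pass the filter on dim probes, at 0.16. For the genes that separated the clones, the mean of both clones therefore describes neither, and no gene of the list passed limma (HSPA5 adjusted p = 0.985).

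**Figure D5:**
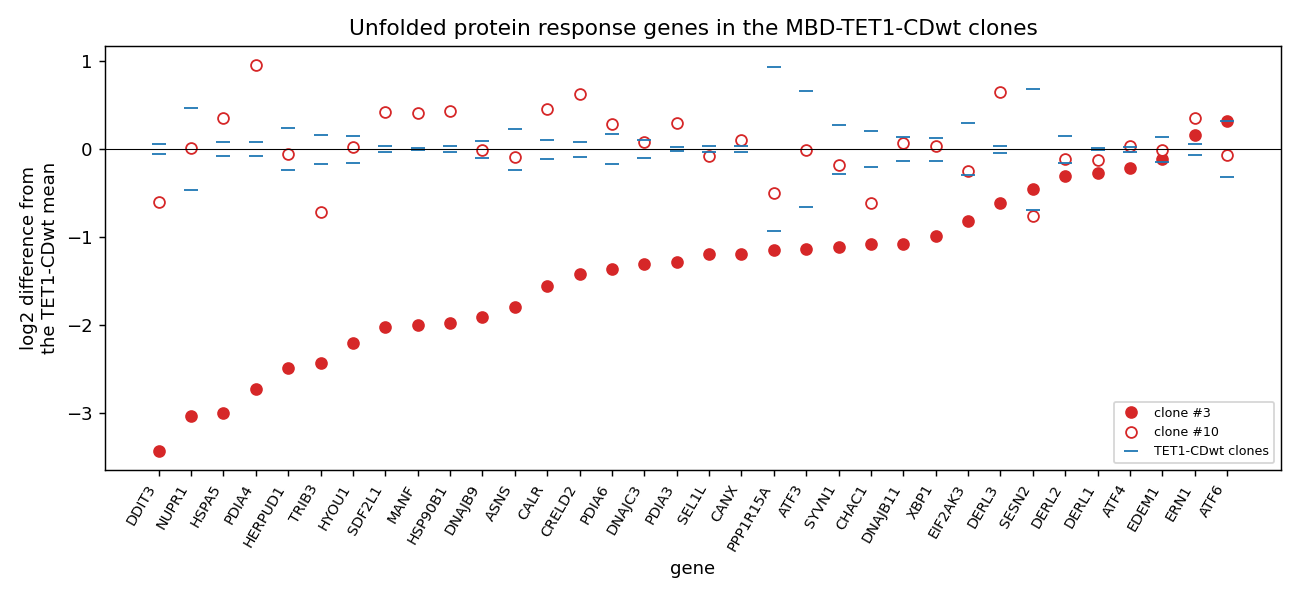
Log2 difference from the TET1-CDwt mean for 34 unfolded protein response genes in MBD-TET1-CDwt clone #3 (filled) and clone #10 (open), with the 2 TET1-CDwt clones as blue dashes. Clone #3 lies at or below -1 for 24 genes, while clone #10 stays between -0.76 and 0.95.

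Promoter CpG density was compared between the genes at least 5-fold higher and all tested genes. A window from 250 bases before to 50 after the start was found in the RefSeq table for 34 of the 54 genes at least 5-fold higher, KRT19, SOX17 and OPLAH not among them, and 22 of these (64.7%, 95% exact binomial interval 46.5% to 80.3%) met an observed over expected CpG of at least 0.6 with GC over 50%. The share was 76.7% of 11439 tested genes with a window and 78.0% of 10935 genes that could pass the size rule. Both of these backgrounds hold only detected genes. Over all 27305 RefSeq promoters, detected or not, it was 46.8%. Without near-identical families, 21 of 28 windows met the rule, and among genes at least 2-fold higher the share was 65.5% (interval 56.9% to 73.3%). A stricter rule (0.65 and 55% GC) gave 47.1%, beside 70.0% of all tested genes and 41.9% of all RefSeq promoters. The median window of the 34 genes held 19.5 CG pairs, beside 26 for both backgrounds of detected genes and 14 over all RefSeq promoters. CG pairs ranged from 1 to 36 in them, with SPMIP6, VCX2 and GPAT2 at the low end and GATA3-AS1 at the high end. Of the 12 genes at least 5-fold lower, 8 had a window and 3 of these were CpG-rich (37.5%, interval 8.52% to 75.5%). Genes are not independent replicates, and the first interval includes both shares of detected genes and that of all RefSeq promoters. The other intervals end below the shares of detected genes.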

How the data were processed

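RNA of 8 clonal HEK293T lines was hybridised in 1 colour (Cy3) to Agilent whole human genome arrays. The deposited files hold the authors' scanner intensity per spot from Agilent Feature Extraction (version 9.5.1 per the labels, 10.7.3.1 per the file headers). The authors' series table holds the same linear processed intensity, equal in all 44495 rows on every array, and was not used further. The study used a fold cut-off on normalized intensities, by a normalization not named in the sources used here. Here log2 of the deposited processed intensity was set relative to the 75th percentile of each array, control spots and outlier spots were left out, and spots of a probe were averaged. RefSeq accessions named 74.5% of 34127 probes. A probe was tested (22530 were) if some group had it well above background in both clones, using limma 3.58.1 (R 4.3.3) over all 8 arrays with 4 group means and Benjamini-Hochberg adjustment. Python 3.11.15 with pandas 2.3.3, numpy 2.4.6, scipy 1.17.1 and matplotlib 3.10.9 did the rest. The fits were tested on simulated data. Samples were grouped by title. Array precision is limited by the 2 clones a group.

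Size calls needed both arrays of the higher group above background and a 5-fold difference of means by any probe of a gene, with dim signals raised to the lowest signal well above background on that array. The alternatives covered background, scaling, filters, fit settings and each array left out. Named genes were the study's own check genes, the 15 largest rises with every clone past 5-fold, the 10 largest falls, limma calls, the 10 smallest adjusted p of the slide-cancelling contrast, members of gene lists that passed either rule or define the list, and genes past 5-fold in TET1-CDwt over empty vector. Genes shown for the difference between clones, and the unfolded protein response list, were chosen after their values were seen. The members and lists were chosen with earlier results of these data known. A few genes are left out of the text.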

Additional observations from a re-analysis of the deposited data

Results flagged for a closer look

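For 10 genes the difference between MBD-TET1-CDwt and TET1-CDwt was not the difference between MBD-TET1-CDmut and empty vector, by the limma test of the difference between both differences (log2, adjusted p under 0.05). Except for ST8SIA1, the probes were above background only in MBD-TET1-CDwt, so these values include signals below background in the other 3 groups and are not sizes of change. SOX17 and GAGE7 each gave 7.62. GPAT2 gave 5.53, SOHLH2 5.23 and GTSF1 4.89. OOEP gave 3.08, NEFH 3.02, SLC22A24 2.97 and MEST 2.77. ST8SIA1 gave 3.92, from a probe above background with empty vector alone, where a second probe of the gene was above background on all 8 arrays. The calls for GPAT2, SOHLH2, NEFH and SLC22A24 each rest on 1 of several probes. With 1 array left out, each of these 10 calls was kept in 1 to 3 of 8 fits.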

How the results depend on the processing

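No paired analysis was possible because the groups compared share fewer than 2 clone numbers. Normexp on the mean signal was not run, and normexp on median signals, chosen after seeing the data, stood in for it. It moved the median of all tested probes to 0.13, gave 1 limma call higher, 0 lower and 1 positive slide-cancelling call, gave 14 and 1 genes past 5-fold, and reversed FBP1 (0.22) and GPR50 (0.0443). The limma calls higher and lower were 14 and 1 with no filter on dim probes, 0 and 0 with probes above background on all 8 arrays, 9 and 0 with an intensity trend, 0 and 0 with the 4 arrays alone, and 1 lower with array weights. Positive slide-cancelling calls were 3 with median scaling, 2 with no filter, 0 with all 8 above background, 0 with the trend and 5 with a robust prior, and quantile normalization gave 1 negative. Genes past 5-fold were 82 and 22 with dim signals as measured, 22 and 2 with every clone past 5-fold, and 232 and 165 at 2-fold. Leaving out 1 array gave 10 to 70 calls higher, 0 to 31 lower, 0 to 35 positive and 0 to 4 negative slide-cancelling calls, 45 to 145 genes higher and 12 to 44 lower, and a CpG-rich share of 55.6% to 67.9%. MBD-TET1-CDwt clone #3 set the high of 145, clone #10 that of 44, and the TMEM88 log2 fold was 5.24 without clone #3 and reversed without clone #10 (-0.15). Without TET1-CDwt clone #2 or #5, 30 and 27 genes were lower, and 8 of the 26 limma calls remained. Without either MBD-TET1-CDmut clone 10 remained, and without either empty vector clone 13. GPAT2, GTSF1, MEST, NEFH, SLC22A24, SOHLH2 and SOX17 kept their call against TET1-CDwt with each of the 8 arrays left out. Their slide-cancelling calls were kept in 2 or 3 of 8, and 0 of 10 remained without either empty vector clone, either MBD-TET1-CDmut clone or TET1-CDwt clone #2. With no filter on dim probes, 14 of the 26 limma calls against TET1-CDwt were lost, among them KRT19, HPDL, EFS, OOEP and TDRD9. The calls of MEIOC, H1-1, MAGEA8, MAGEA9 and PRSS21 were lost there as well. The cause of these changes was not tested.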
